A study of Mus musculus with 6 samples.

Results

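The 9 genes described here are 7 interferon-response genes (*Stat2*, *Irf7*, *Irf9*, *Isg15*, *Ifit1*, *Ifit3*, and *Bst2*) and 2 genes of the major histocompatibility complex (MHC) class I molecule (*B2m* and *H2-K1*). They were picked by symbol from the 55401 genes of the count table, and each matched 1 row through its Ensembl identifier. Poly(A)-selected RNA was sequenced in bulk from 3 WT and 3 Plxnb1-/- cultures of primary Schwann cells (SCs), the glia of peripheral nerves. The Plxnb1-/- mice carry a gene trap (Plxnb1tm1Matl) in which a transmembrane-lacZ-neo cassette sits in *Plxnb1*, the gene of the semaphorin receptor Plexin-B1, in every cell of the animal. Mice of both genotypes were adult and on a C57BL/6 background. The study used Plxnb1+/- littermates as controls besides WT mice, and these 3 libraries carry the label WT. Cells of both genotypes came from dorsal root ganglia, were grown with 2 μM forskolin, 10 nM neuregulin, and 10% serum, were depleted of Thy1-positive fibroblasts, and were used between passages 3 and 5. No source says that the 3 cultures of a genotype came from separate mice, so the p-values measure the spread between cultures.

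Interferons are secreted cytokines, and those of type I are released by cells that sense viral or misplaced nucleic acid. Type I interferons bind a receptor of the chains *Ifnar1* and *Ifnar2*, whose kinases phosphorylate STAT proteins, STAT2 among them. A complex of STAT2 and IRF9 binds an interferon-stimulated response element (ISRE) in the promoters of antiviral genes. Interferon-γ has a receptor of its own and is known for inducing MHC class I, which shows peptides from inside the cell to cytotoxic T cells. SCs are known to respond to interferons and to carry MHC class I.

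The ISRE is the DNA feature through which most of these genes are known to be induced, and the promoter stretches that hold it are therefore shown. RefSeq promoters (GRCm38.p6, 300 bases around the gene start) were found for all 9 genes and searched on both strands for the ISRE core, spelled as GAAA, any 2 bases, and GAAA, which reads TTTC, any 2 bases, and TTTC when it lies on the other strand. It occurred in the promoters of 6 of the 9 genes, against 3.99% of 27025 genes with a promoter. The windows of *Irf7*, *Irf9*, and *H2-K1* held no match to these letters. Each stretch is printed 5′ to 3′ in the direction of the gene, with the core in capitals, and lies before the gene start. Cores overlap each other in *Isg15* and *Bst2*.
*Stat2*, chr10:128270256-128270305, plus strand: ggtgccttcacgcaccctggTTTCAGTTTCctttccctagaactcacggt
*Isg15*, chr4:156200855-156200916, minus strand: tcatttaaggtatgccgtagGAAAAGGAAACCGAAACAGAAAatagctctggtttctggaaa
*Ifit1*, chr19:34640765-34640833, plus strand: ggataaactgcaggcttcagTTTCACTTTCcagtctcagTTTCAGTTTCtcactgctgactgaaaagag
*Ifit3*, chr19:34583353-34583436, plus strand: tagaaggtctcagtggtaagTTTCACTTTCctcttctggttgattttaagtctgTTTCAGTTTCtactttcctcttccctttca
*Bst2*, chr8:71537567-71537622, minus strand: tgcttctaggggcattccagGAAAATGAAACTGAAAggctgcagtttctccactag
*B2m*, chr2:122147528-122147577, plus strand: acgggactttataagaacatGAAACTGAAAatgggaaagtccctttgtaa
A match describes these letters in the window and is no proof of a binding site.

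Total counts lay between 59252048 and 77280964 per library, so that 3 counts, the floor taken as detected, correspond to at most 0.0513 CPM (counts per 1000000 counts of the library, after TMM scaling). This floor covers counting error only. *Plxnb1* was lower in every Plxnb1-/- library (log2 fold change −2.08, standard error 0.25, edgeR adjusted p = 0.0449). The SC marker *Sox10* stood between 432 and 579.9 CPM in the 6 libraries, and the summed level of 10 SC markers ran from 2430 to 2891 CPM in WT cultures and from 2942 to 3319 CPM in the Plxnb1-/- cultures. Fibroblast markers were abundant too. The summed level of the 7 on the list ran from 5494 to 7239 CPM in WT cultures and from 5128 to 5406 CPM in the Plxnb1-/- cultures. In bulk RNA, fewer cells of a type and less RNA per cell cannot be told apart.

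All 9 genes were tested, and neither edgeR nor DESeq2 called any of them. edgeR called 0.0358% of the 22318 genes tested (0.00448% higher and 0.0314% lower in Plxnb1-/- SCs) and DESeq2 1.5% (0.69% higher and 0.811% lower). The fitted fold change was above 0 for each of the 9, with a median log2 fold change of 0.48 against 0.0050 over all genes. Adjusted p lay between 0.273 and 0.524 from edgeR and between 0.107 and 0.645 from DESeq2. Unadjusted p was below 0.05 for 4 of the 9, *Irf7*, *Irf9*, *B2m*, and *H2-K1*, all higher in Plxnb1-/- SCs. Of all genes, 13.7% had such a p, with 6.95% higher and 6.78% lower. The count of 4 moved between 1 (without WT replicate 1 or without Plxnb1-/- replicate 3) and 8 (with no filter on low counts, without Plxnb1-/- replicate 1, or without Plxnb1-/- replicate 2). The 9 genes fell into a pair of patterns. The 7 interferon-response genes were high in a single Plxnb1-/- culture, replicate 3, and the MHC genes were slightly higher in all 3.

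Of the signaling genes, *Stat2* (GRCm38 chr10:128270559-128292849, plus strand), the signal transducer of type I interferon, measured 33.2, 34.2, and 36.8 CPM in the WT cultures 1, 2, and 3, and 36.9, 35.5, and 58.1 CPM in the Plxnb1-/- cultures with these numbers. Only the last value stood outside the WT range by more than 1 CPM. *Irf9* (chr14:55603571-55610030, plus strand), the DNA-binding partner of STAT2, measured 28.4, 32.6, and 35.3 CPM in WT cultures and 38.2, 34.3, and 53.4 CPM in the Plxnb1-/- cultures. *Irf7* (chr7:141262706-141266481, minus strand), a transcription factor that amplifies type I interferon production, measured 4.56, 6.08, and 5.65 CPM in WT cultures and 6.39, 5.86, and 15.7 CPM in the Plxnb1-/- cultures. For all 3 genes, Plxnb1-/- replicate 2 lay within the WT range, so that the genotypes overlapped. Of their exon bases, *Irf9* shares 2.28% with *Rnf31* and *Irf7* 1.19% with *Phrf1*, where reads may count for either gene. The log2 fold change was 0.32 for *Stat2* (standard error 0.17, edgeR adjusted p = 0.424), 0.39 for *Irf9* (standard error 0.15, edgeR adjusted p = 0.325), and 0.78 for *Irf7* (standard error 0.34, edgeR adjusted p = 0.364).

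Among the antiviral effectors, *Isg15* (chr4:156199424-156200818, minus strand), a ubiquitin-like protein that is joined to other proteins, measured 15.6, 20.2, and 20.5 CPM in the WT cultures 1, 2, and 3, and 21.0, 18.7, and 50.3 CPM in the Plxnb1-/- cultures with these numbers. *Ifit1* (chr19:34640871-34650009, plus strand), which binds viral RNA that lacks the cap methylation of host RNA, measured 3.11, 6.20, and 7.19 CPM in WT cultures and 6.25, 4.55, and 16.3 CPM in the Plxnb1-/- cultures. *Ifit3* (chr19:34583531-34588731, plus strand), its partner protein, measured 10.9, 18.2, and 18.4 CPM in WT cultures and 16.4, 16.5, and 45.0 CPM in the Plxnb1-/- cultures. For *Ifit1* and *Ifit3*, both Plxnb1-/- replicates 1 and 2 fell inside the WT range, and WT replicate 1 was the lowest of the 6 cultures. *Bst2* (chr8:71534255-71537456, minus strand), the tetherin that holds budding virus at the cell surface, measured 23.1, 28.4, and 23.9 CPM in WT cultures and 28.2, 27.1, and 49.9 CPM in the Plxnb1-/- cultures. The log2 fold change was 0.68 for *Isg15* (standard error 0.33, edgeR adjusted p = 0.400), with a 95% interval from −0.07 to 1.42. It was 0.71 for *Ifit1* (standard error 0.46, edgeR adjusted p = 0.524), 0.71 for *Ifit3* (standard error 0.38, edgeR adjusted p = 0.444), and 0.48 for *Bst2* (standard error 0.21, edgeR adjusted p = 0.365). Of the words of 50 bases in *Ifit3* transcripts, 51.2% also occur in *Ifit3b*, so the split of reads between these genes is uncertain. *Ifit3b* itself measured from 3.86 to 7.41 CPM in WT cultures and 6.71, 5.53, and 16.2 CPM in the Plxnb1-/- cultures.

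**Figure D1:**
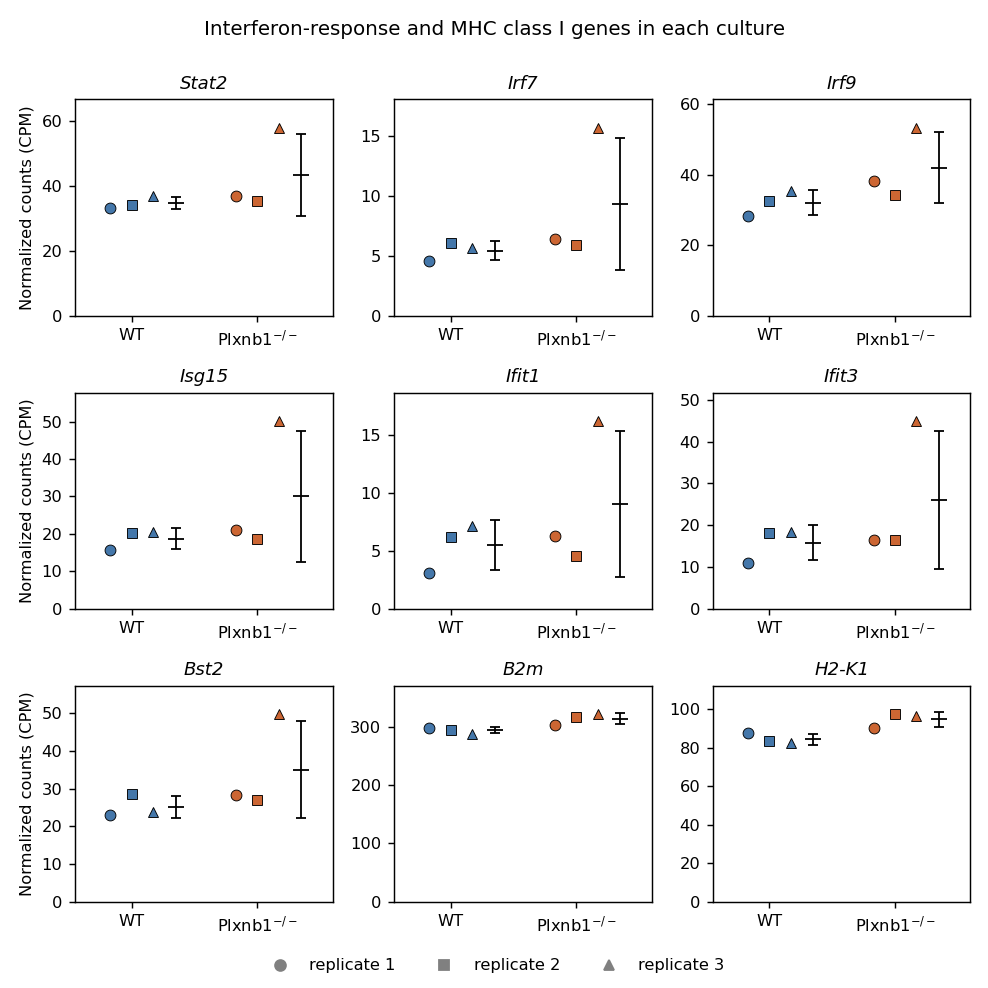
Normalized counts (CPM, linear axes from 0) of the 9 genes in each culture, with WT in blue, Plxnb1-/- in orange, a symbol per replicate, and the mean ± SD (n = 3) beside the points. In the 7 interferon-response genes the triangle of Plxnb1-/- replicate 3 stands above all other points, whereas in *B2m* and *H2-K1* the 3 Plxnb1-/- points stand together just above WT.

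Plxnb1-/- replicate 3 was the highest of the 6 cultures for all 7 interferon-response genes, and WT replicate 1 was the lowest for all 7. Among all genes tested, Plxnb1-/- replicate 3 was the highest culture for 20.4%. The ratio of replicate 3 to the highest other culture was 2.46 for *Irf7*, 2.44 for *Ifit3*, 2.39 for *Isg15*, 2.26 for *Ifit1*, 1.75 for *Bst2*, 1.57 for *Stat2*, and 1.40 for *Irf9*. For *B2m* it was 1.02 and for *H2-K1* 0.987. On the log2 scale, the mean of the 7 genes in replicate 3 was 0.99 above their mean over all cultures, against −0.06 and −0.20 in the other Plxnb1-/- cultures and −0.54, −0.10, and −0.09 in the WT cultures. The summed level of the 7 genes was 289 CPM in replicate 3 and between 119 and 153 CPM in the other 5 cultures. The counts behind these values were not near the floor, with 199 for the lowest, *Ifit1* in WT replicate 1, and 1127 for the same gene in replicate 3.

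Without Plxnb1-/- replicate 3, the median log2 fold change of the 7 genes was 0.08 in place of 0.68, and *Ifit1* stood at −0.026. The largest remaining values were those of *Irf9* and *Irf7*, at 0.18 each, with 95% intervals from −0.04 to 0.39 and from −0.13 to 0.48. For *Isg15* the interval of the log2 fold change became −0.19 to 0.36. No member was called, and *H2-K1* was the only one with an unadjusted p below 0.05 (0.0282 from edgeR). Leaving out WT replicate 1 moved the median of the 7 genes to 0.42. Without both cultures it was 0.03, and *Isg15*, *Ifit1*, and *Ifit3* were lower in Plxnb1-/- SCs by fit, at −0.031, −0.31, and −0.15. These cultures were picked after seeing the data, as the lowest and the highest for all 7 genes. Leaving both out therefore had to lower the difference, and no conclusion is drawn from the changed signs.

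**Figure D2:**
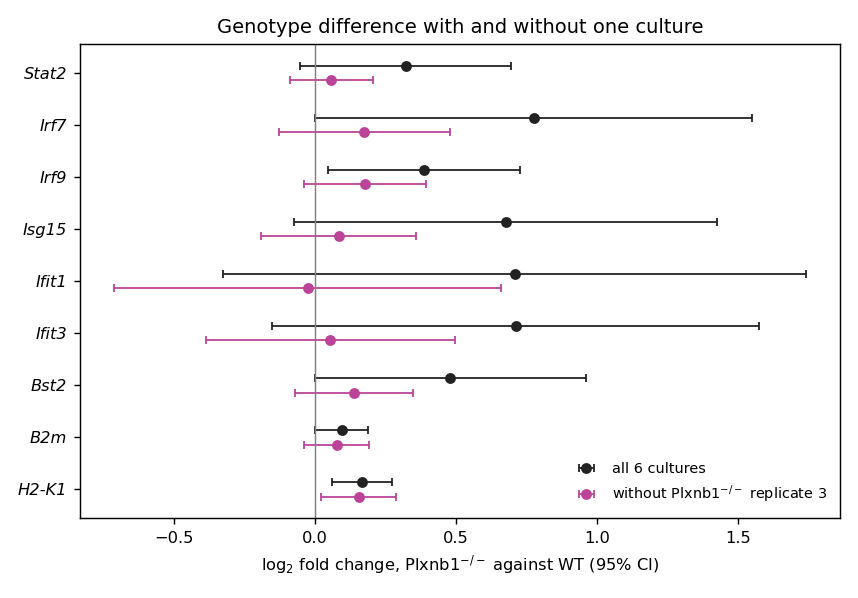
Log2 fold change of each gene, Plxnb1-/- against WT, with 95% intervals from edgeR, for all 6 cultures (black) and without Plxnb1-/- replicate 3 (purple). The points of the 7 interferon-response genes move toward 0, with *Isg15* going from 0.68 to 0.08, while *H2-K1* goes from 0.17 to 0.15.

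The MHC class I molecule has a polymorphic heavy chain, here *H2-K1*, and an invariant light chain, β2-microglobulin, from *B2m*. *B2m* (chr2:122147686-122153083, plus strand) measured 299, 295, and 288 CPM in the WT cultures 1, 2, and 3, and 304, 316, and 322 CPM in the Plxnb1-/- cultures with these numbers. *H2-K1* (chr17:33996017-34000347, minus strand) measured 87.6, 83.3, and 82.2 CPM in WT cultures and 90.2, 97.5, and 96.2 CPM in the Plxnb1-/- cultures. These were the members whose genotypes did not overlap, 2 of 9. Among all genes tested, 19.7% did not overlap, with 9.3% higher and 10.4% lower in Plxnb1-/- SCs. The means were 294 ± 5.32 CPM in WT cultures and 314 ± 9.48 CPM in the Plxnb1-/- cultures for *B2m* and 84.4 ± 2.87 CPM and 94.7 ± 3.91 CPM for *H2-K1* (SD, n = 3). The log2 fold change was 0.10 for *B2m* (standard error 0.04, edgeR adjusted p = 0.360) and 0.17 for *H2-K1* (standard error 0.05, edgeR adjusted p = 0.273), with a 95% interval from 0.06 to 0.27 for *H2-K1*. With each culture left out in turn, the log2 fold change of *H2-K1* stayed between 0.14 and 0.20. Among the 50-base words of *H2-K1* transcripts, 9.63% occur in another gene, most often *H2-Q10*.

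The members span a wide range of levels. For scaling, the length of a gene was taken as all bases in any of its annotated exons. For *Irf7* this was 1 block of 3776 bases, the whole span of the gene. A longer length lowers the scaled value, so the order below depends in part on the annotation. Scaled to the length of the exons, *B2m* stood highest in WT SCs, at 342 CPM per kilobase, followed by *H2-K1* at 28.7, *Bst2* at 27.8, and *Isg15* at 24.8 CPM per kilobase. The WT range of *Bst2*, from 25.5 to 31.5, overlapped both that of *H2-K1*, from 28.0 to 29.8, and that of *Isg15*, from 20.6 to 27.1 CPM per kilobase. *Ifit3* followed at 9.07, *Irf9* at 5.96, *Stat2* at 5.86, *Ifit1* at 2.07, and *Irf7* at 1.44 CPM per kilobase. Among these, the neighbors *Ifit3* and *Irf9*, *Irf9* and *Stat2*, and *Ifit1* and *Irf7* overlapped in their WT ranges. In Plxnb1-/- replicate 3 the order changed. *Isg15*, at 66.5 CPM per kilobase, stood above *Bst2* at 55.2 and *H2-K1* at 32.8.

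Interferons themselves were close to undetected. Of 21 interferon genes, 18 had 0 counts in every library, *Ifnb1* and *Ifng* among them, which allows at most 0.0513 CPM. *Ifnz* was the only one tested, with between 2 and 14 counts, the lowest in Plxnb1-/- replicate 3. The chains of the type I receptor were expressed in every culture, and the genotypes overlapped. *Ifnar1* measured 130 ± 2.57 CPM in WT cultures and 132 ± 2.50 CPM in the Plxnb1-/- cultures, and *Ifnar2* 56.4 ± 2.15 and 54.9 ± 2.32 CPM (SD, n = 3). The log2 fold changes of *Ifngr1* and *Ifngr2*, the chains of the interferon-γ receptor, were −0.02 and −0.09, and that of *Il10rb* was 0.10. *Ifnlr1*, a chain of the interferon-λ receptor, stood at 0.297 CPM or less in every library, with a log2 fold change of −0.49 (edgeR adjusted p = 0.562). *Jak2*, a kinase of the pathway, was at −0.08.

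Most other interferon-stimulated effectors were also highest in Plxnb1-/- replicate 3. Of 49 such genes, all tested, 43 were higher and 6 lower by fit (median log2 fold change 0.25), and neither edgeR nor DESeq2 called any. Unadjusted p was below 0.05 for 15 higher genes and 1 lower gene, where the shares of all genes were 6.95% and 6.78%. The genotypes did not overlap for 12 higher genes and 1 lower gene of the 49, where the shares of all genes tested were 9.3% and 10.4%. Plxnb1-/- replicate 3 was the highest culture for 41 of the 49, against 20.4% of all genes tested. Without it, the median log2 fold change was 0.06, with 33 higher and 16 lower, and 4 higher genes and 1 lower gene had an unadjusted p below 0.05 (3.46% and 3.72% of all genes). *Ddx60*, a helicase of antiviral defense, measured 0.719, 1.11, and 0.777 CPM in WT cultures and 1.20, 1.43, and 2.48 CPM in the Plxnb1-/- cultures (log2 fold change 0.97, edgeR adjusted p = 0.285, and 0.61 without Plxnb1-/- replicate 3). *Ifit2*, a relative of *Ifit1* and *Ifit3* from the same locus, measured 43.3, 36.7, and 40.9 CPM in WT cultures and 46.0, 46.0, and 54.2 CPM in the Plxnb1-/- cultures (log2 fold change 0.27, edgeR adjusted p = 0.280). Its replicate 3 was 1.18 times the highest other culture, less than for its neighbors *Ifit1* and *Ifit3*. *Isg20*, an exonuclease, lay in the other direction, with 3.48, 4.53, and 3.45 CPM in WT cultures and 2.76, 2.80, and 2.78 CPM in the Plxnb1-/- cultures (log2 fold change −0.45, edgeR adjusted p = 0.273).

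**Figure D3:**
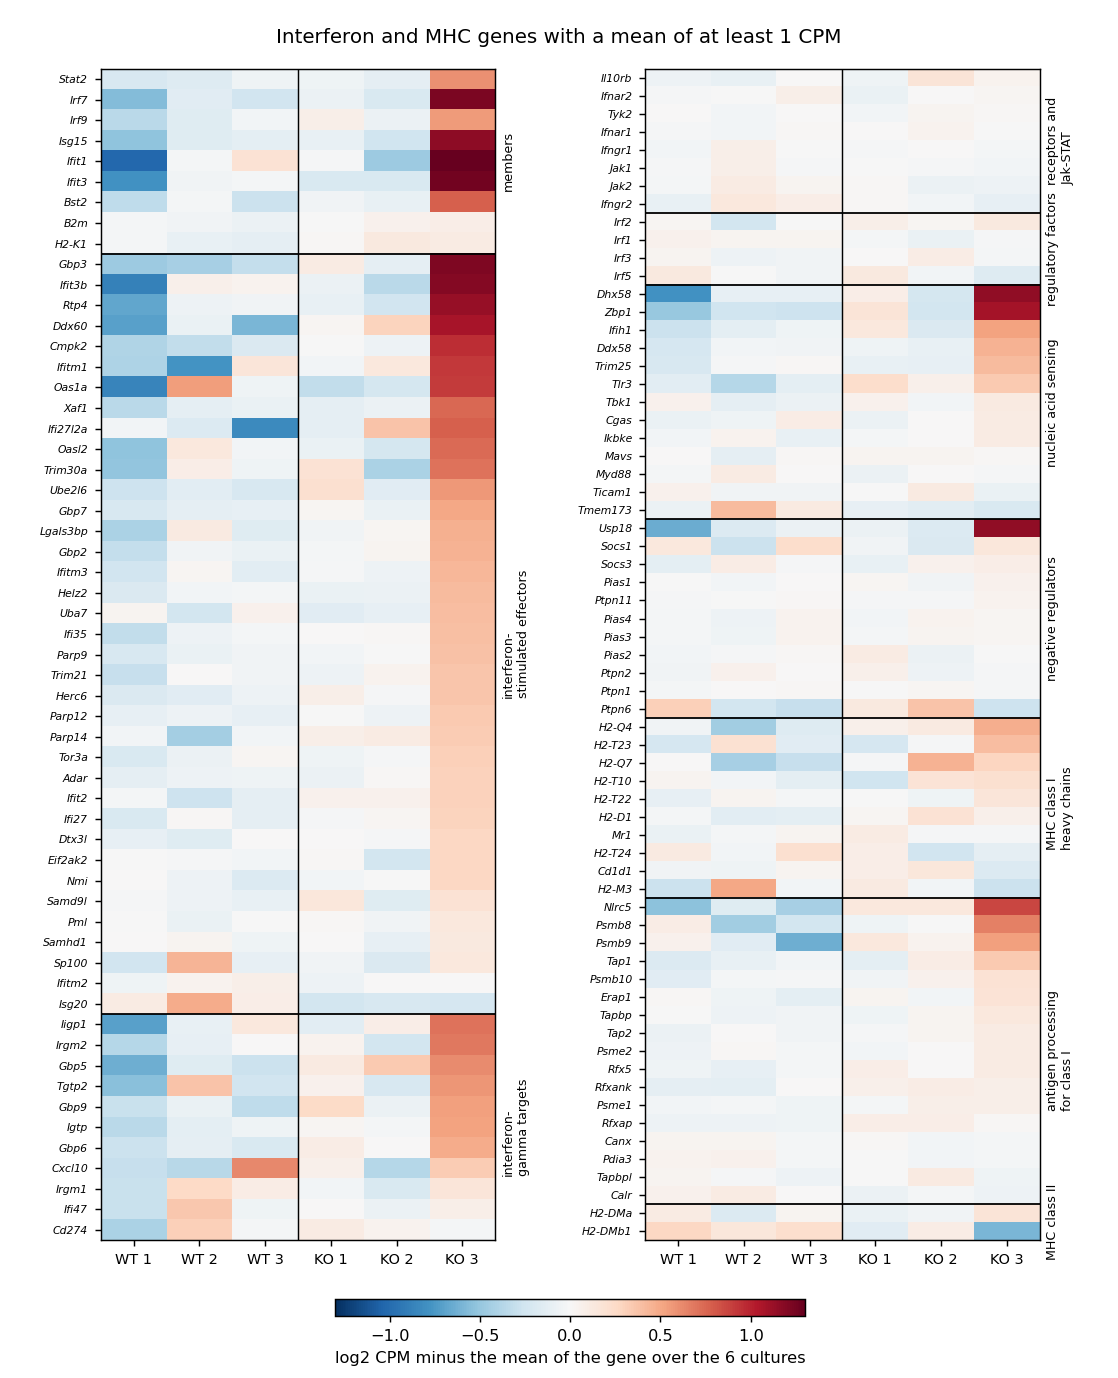
Log2 CPM of the members and of the listed interferon and MHC genes with a mean of at least 1 CPM, minus the mean of each gene over the 6 cultures (KO is Plxnb1-/-). Genes of each list other than the members are ordered by the ratio of Plxnb1-/- replicate 3 to the other cultures. Red is above and blue below the mean of the gene. The column of Plxnb1-/- replicate 3 is red through most of the effectors shown and pale through the receptors.

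The sensors and regulators were mixed. Of 15 genes of nucleic acid sensing, 12 were higher and 3 lower by fit (median log2 fold change 0.09). Plxnb1-/- replicate 3 was the highest culture for 9 of the 15, against 20.4% of all genes tested. edgeR called 0, and DESeq2 called 1, *Tlr3*, the receptor for double-stranded RNA, against 0.69% of all genes on the higher side. *Tlr3* measured 13.1, 11.2, and 13.2 CPM in WT cultures and 17.0, 15.2, and 18.3 CPM in the Plxnb1-/- cultures. Its log2 fold change was 0.43 (edgeR adjusted p = 0.266 and 0.00595 from DESeq2) and ranged from 0.36 to 0.50 when any single culture was left out, so it did not rest on replicate 3. *Zbp1*, a sensor of Z-form nucleic acid, measured between 3.83 and 4.49 CPM in WT cultures and 6.02, 4.57, and 11.4 CPM in the Plxnb1-/- cultures. *Tmem173*, which encodes the DNA-sensing adaptor STING, measured 32.8, 46.1, and 37.5 CPM in WT cultures and 32.1, 31.4, and 30.1 CPM in the Plxnb1-/- cultures (log2 fold change −0.31, edgeR adjusted p = 0.295, and −0.17 without WT replicate 2). The other 6 tested interferon regulatory factors lay between −0.09 for *Irf1* and 1.53 for *Irf4*, which stood at 0.130 CPM or less. Of these 6, 3 were highest in Plxnb1-/- replicate 3. *Irf2*, a competitor of *Irf1*, was at 0.14. Of 11 negative regulators, 9 were higher and 2 lower (median 0.02), and 3 were highest in Plxnb1-/- replicate 3. *Usp18*, which removes ISG15 and dampens the type I receptor, measured between 3.78 and 5.59 CPM in WT cultures and 5.62, 5.23, and 13.2 CPM in the Plxnb1-/- cultures. *Socs1* and *Ptpn6*, further brakes on Jak-STAT signaling, were at −0.07 and 0.15.

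Other genes of class I presentation differed among themselves. Of 17 further heavy chain genes and relatives, 13 were tested, with 11 higher and 2 lower (median log2 fold change 0.11). Replicate 3 of Plxnb1-/- was the highest culture for 4 of the 13, against 20.4% of all genes tested. The genotypes overlapped for 11 of the 13, and among all genes tested 19.7% did not overlap. edgeR called 0, with 3 higher at an unadjusted p below 0.05 (6.95% of all genes). DESeq2 called 1, *H2-Q4*, against 0.69% of all genes on the higher side. The classical heavy chain *H2-D1* measured 141, 131, and 132 CPM in WT cultures and 146, 164, and 150 CPM in the Plxnb1-/- cultures (log2 fold change 0.19, edgeR adjusted p = 0.273). *H2-Q4* measured 26.7, 20.2, and 24.6 CPM in WT cultures and 28.9, 29.9, and 38.3 CPM in the Plxnb1-/- cultures (log2 fold change 0.44, edgeR adjusted p = 0.273 and 0.0265 from DESeq2). The genotypes overlapped for neither gene, and without Plxnb1-/- replicate 3 their log2 fold changes were 0.20 and 0.30. *H2-Q7*, which stood below 2 CPM, had a log2 fold change of 0.48 over all 6 cultures and 0.47 without that one. Copies limit these values, since 12.8% of the 50-base words of *H2-D1*, 21.8% of those of *H2-Q4*, and 26.4% of those of *H2-Q7* occur in another gene.

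*Nlrc5* encodes the transactivator that is known for switching on class I genes. It measured 2.19, 2.84, and 2.34 CPM in WT cultures and 3.49, 3.48, and 5.77 CPM in the Plxnb1-/- cultures, with no overlap between genotypes. Its log2 fold change was 0.79 (standard error 0.21, edgeR adjusted p = 0.273 and 0.0181 from DESeq2), and 0.51 without Plxnb1-/- replicate 3. Of the 17 genes of class I antigen processing, 14 were higher and 3 lower (median 0.11), and 10 were highest in Plxnb1-/- replicate 3, against 20.4% of all genes. edgeR called 0, with 3 higher and 1 lower at an unadjusted p below 0.05 (6.95% and 6.78% of all genes). DESeq2 called *Nlrc5* alone, against 0.69% of all genes on the higher side. *Rfxank*, a subunit of the complex that binds MHC promoters, measured 27.3 ± 1.43 CPM in WT cultures and 30.5 ± 0.410 CPM in the Plxnb1-/- cultures (SD, n = 3). The chaperone *Calr* was at −0.11. *Psmb8*, of the immunoproteasome, and *Tap1*, of the peptide transporter, were chosen after their values were seen and had 14.1 and 21.1 CPM in Plxnb1-/- replicate 3, the highest of the 6 cultures, and between 6.51 and 9.53 and between 14.7 and 17.8 CPM in the others.

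**Figure D4:**
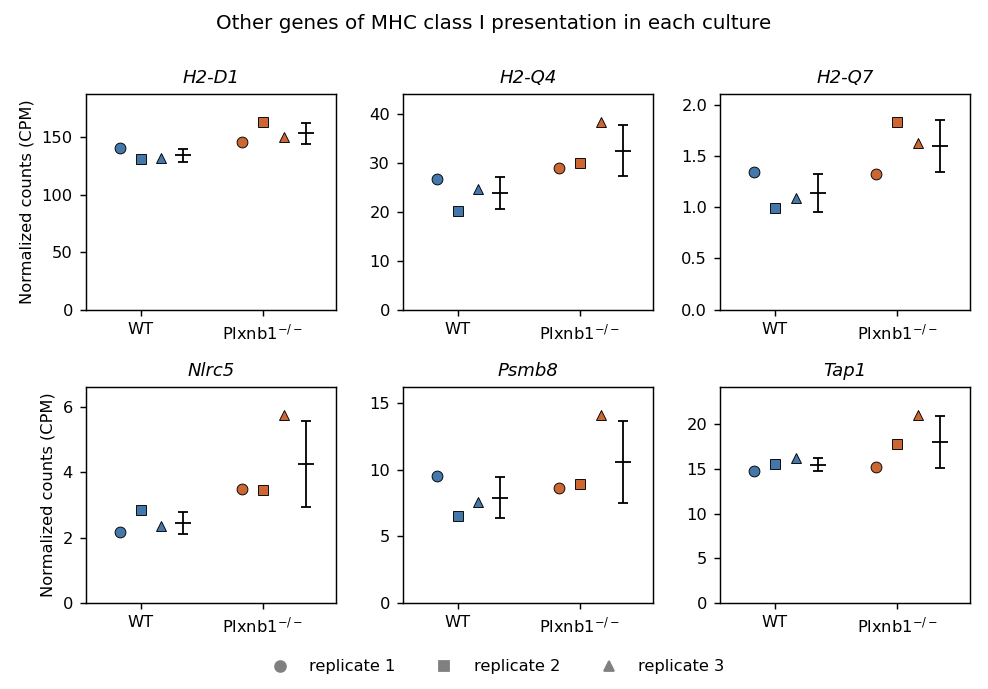
Normalized counts (CPM, linear axes from 0) of 6 other genes of MHC class I presentation in each culture, with WT in blue, Plxnb1-/- in orange, a symbol per replicate, and the mean ± SD (n = 3) beside the points. The 3 Plxnb1-/- points lie above all WT points for *H2-D1*, *H2-Q4*, and *Nlrc5*, whereas *Psmb8* and *Tap1* overlap and are highest in Plxnb1-/- replicate 3.

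Genes known as targets of interferon-γ were mixed, with 13 of 17 tested genes higher and 4 lower (median log2 fold change 0.36, and 0.11 without Plxnb1-/- replicate 3). None was called by edgeR or DESeq2, and 4, all higher, had an unadjusted p below 0.05 (6.95% of all genes). Plxnb1-/- replicate 3 was the highest culture for 9 of the 17, against 20.4% of all genes tested. The genotypes did not overlap for 5 of the 17, all higher, against 9.3% of all genes tested. The guanylate-binding proteins *Gbp5*, *Gbp6*, and *Gbp9*, named for the lowest p, were among these 5. Their log2 fold changes were 0.71, 0.40, and 0.49, with adjusted p of 0.273, 0.289, and 0.286 from edgeR. All 3 were highest in Plxnb1-/- replicate 3, and without it their log2 fold changes were 0.57, 0.25, and 0.33. *Gbp5* measured 0.797, 1.11, and 1.02 CPM in WT cultures and 1.34, 1.56, and 1.89 CPM in the Plxnb1-/- cultures. MHC class II, which professional antigen-presenting cells use, was low, with a summed level between 11.3 and 13.2 CPM in all cultures. *H2-Ab1* measured from 0.297 to 0.367 CPM in WT cultures and from 0.519 to 0.662 CPM in the Plxnb1-/- cultures (log2 fold change 0.86, edgeR adjusted p = 0.273). *H2-DMb1* and *H2-DMb2* were at −0.39 (−0.23 without Plxnb1-/- replicate 3) and −0.88 (−0.36 without it), the latter at 0.0565 CPM or less.

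Markers of other cells were set beside these results. All 5 neuron markers were highest in Plxnb1-/- replicate 3, against 20.4% of all genes tested. The summed level of the neuron markers was 180.2 CPM there and between 144 and 167 CPM in the other cultures, with *Nefl* at 9.17 CPM against 5.55 CPM or less. This was not particular to neurons. Replicate 3 was also highest for 4 of 5 pericyte and smooth muscle markers, whose summed level of 707 CPM lay within the range of the others, 675 to 822 CPM. It was highest for 5 of 10 SC, 1 of 7 fibroblast, 1 of 13 macrophage and leukocyte, 0 of 5 endothelial, and 0 of 3 satellite glia markers. The part of neurons or of other cells in the values of replicate 3 was not tested. The summed level of 13 macrophage and leukocyte markers was 78.0 CPM in replicate 3, within the range of the other cultures, from 66.0 to 96.2 CPM. Of 5 plasmacytoid dendritic and lymphocyte markers, 3 had 0 counts in every library. *Siglech*, the defining marker of plasmacytoid dendritic cells, and *Cd3e* were among these. The summed level of the 5 was 0.115 CPM in replicate 3 and between 0.0313 and 0.103 CPM in the other cultures. The only 1 tested had a log2 fold change of 0.59 (edgeR adjusted p = 0.712), and 0.33 without replicate 3. For the class I genes, the macrophage and leukocyte markers ran from 66.0 to 78.3 CPM in WT cultures and from 78.0 to 96.2 CPM in the Plxnb1-/- cultures, and all 13 were higher by fit, with a median log2 fold change of 0.26. DESeq2 called 2 of them, *Cx3cr1* and *C1qb*, against 0.69% of all genes. Without Plxnb1-/- replicate 3 the median of the 13 was 0.40, and 10 had an unadjusted p below 0.05 (3.46% of all genes on the higher side). The part of these markers, and of the higher SC and lower fibroblast markers, in the values of *B2m* and *H2-K1* was not tested.

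The genes most alike to the members were found by the correlation of log2 CPM with the mean of the 9 members over the 6 cultures. The 5 with the highest Pearson's r were *Usp18* (0.999), *Ddx58* (0.996), *Rtp4* (0.995), *Nefl* (0.995), and *Mllt1* (0.993). These values describe 6 libraries and are dominated by Plxnb1-/- replicate 3. Over the other 5 libraries r lay between 0.954 and 0.989 for these genes, with WT replicate 1 lowest. *Rtp4* measured 19.5 CPM in replicate 3 and between 5.53 and 8.57 CPM in the others, and *Ddx58*, the RNA sensor RIG-I, 58.4 CPM and between 36.8 and 41.6 CPM. *Mllt1* was likewise lowest in WT replicate 1 and highest in Plxnb1-/- replicate 3, over a narrow range from 87.9 to 92.0 CPM.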

How the data were processed

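Bulk RNA-seq of 6 primary SC cultures was analysed. The authors trimmed reads with Trim Galore 0.6.5, aligned them to mm10 with Bowtie2 2.4.1, removed duplicates with SAMtools 1.10, and deposited featureCounts counts on the exons of GENCODE genes, without normalization. The strand setting of the counting and the treatment of reads with several alignments are not given in the sources used here. The authors' FPKM table, made from the same counts, was not used.

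A gene was tested if 5 or more of the 6 libraries had 2 or more counts (22318 genes). Genotype was fitted alone in edgeR 4.0.16 (R 4.3.3, TMM scaling, quasi-likelihood test), with Benjamini-Hochberg adjustment over these genes. A call required an adjusted p under 0.05 together with a log2 fold change beyond 0.25 in either direction. The study's own tool, DESeq2 1.42.0, served as an alternative. CPM values use TMM-scaled library sizes. The fit was tested on simulated counts. Of the 55401 genes listed, 55141 matched GENCODE M21 of GRCm38 without the version of the identifier. That release gave exon lengths, and is older than the release the authors used.

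The members and all gene lists were chosen with earlier results of these data known. Genes named beyond the members were the 3 with the lowest p in each list, interferon receptor chains, list genes called by edgeR or DESeq2, the 5 genes most alike to the members, and *Plxnb1*. Alternatives were other normalizations, filters and dispersion estimates, DESeq2, no fold change threshold, the replicate number as a block, and each library left out. Leaving out WT replicate 1 together with Plxnb1-/- replicate 3 was added after seeing the data. Replicate numbers were not used as a pairing, because neither labels nor methods tie a number to a shared litter or day. Some genes on the lists are counted in the summaries and are not reported here by name.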

Additional observations from a re-analysis of the deposited data

How the results depend on the processing

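No member was called under any alternative run. The number of all genes called, 8, moved to 296 without a filter on low counts, 335 with DESeq2, and 5 with the replicate block, and ran from 4 to 25 with 1 library left out (25 without WT replicate 2, 5 without Plxnb1-/- replicate 1, 4 without Plxnb1-/- replicate 2, and 4 without Plxnb1-/- replicate 3). The number of other interferon and MHC genes called, 0, became 4 without a filter (*Tlr3*, *H2-Q4*, *Nlrc5*, and, named after its values were seen, *Gbp3*) and 3 with DESeq2, and was 0 with 1 library left out. The cause was not tested. Among the fits in which *Plxnb1* lost its call were edgeR's filterByExpr (adjusted p = 0.0715) and robust dispersion (adjusted p = 0.220). Another was the edgeR fit without Plxnb1-/- replicate 3 (adjusted p = 0.120). Without both WT replicate 1 and Plxnb1-/- replicate 3, the log2 fold change turned to −0.031 for *Isg15*, −0.31 for *Ifit1*, −0.15 for *Ifit3*, 0.70 for *Ifnz*, −0.033 for *Ddx58*, −0.11 for *Rtp4*, and −0.070 for *Nefl*. With 1 library left out, it ran from −0.026 to 1.03 for *Ifit1*, from −0.83 to 0.36 for *Ifnz*, from −0.0052 to 0.37 for *Ptpn6*, from −0.21 to 0.029 for *Socs1*, and from −0.047 to 0.011 for *Ifngr1*. Apart from the fits with 1 library left out, the alternatives gave 420 values of the 47 named genes. Of these, 405 kept their direction and side of the threshold and 7 changed direction. The fit without both WT replicate 1 and Plxnb1-/- replicate 3 is among these alternatives. Deviations of same-numbered cultures from their group means correlated at −0.022, 0.0078, and 0.065. Those of differently numbered cultures correlated between −0.053 and 0.049. With 3 cultures per genotype, these values cannot show whether a number stands for a shared litter or day. With the replicate block, 0 members were called and adjusted p lay between 0.231 and 0.408 from edgeR.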

Other observations

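Genes that stood alone in a single culture were counted among the 14992 tested genes with a mean of at least 1 CPM, as those at least 1.5 times as high as in each of the other 5 cultures. There were 51 in Plxnb1-/- replicate 3 and 52 in WT replicate 2, and between 2 and 10 in each of the other 4 cultures. Of the 51, 6 were members (*Irf9* fell short) and 13 were on the interferon and MHC lists, which held 114 of the 14992 genes. Of the 52 in WT replicate 2, 0 were members and 0 were on these lists. Genes of the 51 outside the lists, named here after their values were seen, include *Rnf213*, an interferon-inducible ubiquitin ligase, with 62.4 CPM in replicate 3 against 27.3 CPM or less. Neuronal genes were among them too, such as the sodium channel *Scn10a* (3.53 CPM against 2.13 or less), the glutamate transporter *Slc17a6* (4.36 against 2.65 or less), and the microtubule protein *Mapt* (3.81 against 2.44 or less). The largest ratio was that of Gm10095, with 17.4 CPM in replicate 3 and 0.256 CPM or less in the other cultures.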
